A study of Mus musculus with 16 samples.

Results

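In the non-tumour colon of ApcMin/+ mice 9 genes were read: the interleukin 1 family genes Il1a, Il1b, Il1rn, Il18 and Il33, the receptors Il1rl1 and Il1r1, and the cytokines Tnf and Il6. They were found as the array probes whose gene name in the scanner files equals one of these symbols, which gave 11 of 55681 probes. Of the 9 genes, 7 had a probe bright enough to be tested, among 24537 genes tested in all. Il1a and Il6 had none and are described by their values alone.

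ApcMin/+ mice carry an inactivating mutation in a copy of the tumour suppressor Apc and develop intestinal tumours, and all 16 mice had this genotype. The 4 Sham mice drank plain water for 28 days. The 6 Control mice drank 1.5% dextran sulphate sodium (DSS, which injures the colon epithelium and causes colitis) for 3 days and received saline. The 6 5-ASA mice had the same DSS course and received 5-aminosalicylic acid, also called mesalazine, which is given for ulcerative colitis. The labels disagree on the dosing: one text has intracolorectal dosing over 28 days, and another has recovery on drinking water, with the drug in it for the 5-ASA mice, over 25 days after DSS. The labels give no age or sex. Tissue without visible tumour was taken at day 28, and 1 Cy3-labelled array was hybridised per mouse. The series title asks about neutrophil activation and tumour burden under 5-ASA, and these genes address the cytokine state of the tissue that surrounds the tumours.

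Values are log2 of the spot intensity minus log2 of the array's 75th percentile, so that 0 means a signal at that percentile and a step of 1 a doubling. Probes differ in their response, so a value is compared between mice and never between probes. Each of 2 slides carried arrays of 2 Sham, 3 Control and 3 5-ASA mice. Every Sham mouse and Control 1, 2, 4 and 5 sat in the first row of a slide; Control 3, Control 6 and every 5-ASA mouse sat in the second. Sham and 5-ASA thus cannot be told apart from the row. First-row arrays had 59.8% to 65.2% of spots well above background, against 53.0% to 57.7% for second-row arrays. The colon epithelium markers were measured in every mouse (9 of 9 tested, mean log2 level 6.01 to 6.53), and 8 of 12 stratified squamous markers were also measured, at a mean of -1.70 to -0.69, with Krt4 not above background on any array. The samples were bulk tissue, so fewer cells of a type and less RNA per cell cannot be told apart.

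IL-1α and IL-1β signal through the receptor encoded by Il1r1 and drive fever, neutrophil recruitment and NF-κB target genes, and Il1rn encodes the antagonist that occupies this receptor without signalling. IL-1β and IL-18 are made as inactive precursors that inflammasome caspases cleave, and IL-18 is made in quantity by colon epithelium. IL-33 is an alarmin held in the nucleus of stromal and barrier cells, and its receptor ST2, encoded by Il1rl1, exists as a membrane-bound long form and as a secreted short form that acts as a decoy. TNF and IL-6 are the other main inflammatory cytokines of colitis.

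The 2 forms of Il1rl1 differ at the 3′ end, and the array has a probe for each. RefSeq's promoter table for GRCm38.p6 holds 2 Il1rl1 starts, 10059 bases apart. The distal one is known for use in mast cells and T helper cells, where GATA factors act, so both upstream windows are shown with every GATA site in capitals (AGATAA with its variant AGATAG, or TGATAA with its variant TGATAG, on either strand). The Il6 window is shown beside them with its match to the NF-κB consensus in capitals.
Il1rl1 distal, chr1:40429320-40429569, plus strand: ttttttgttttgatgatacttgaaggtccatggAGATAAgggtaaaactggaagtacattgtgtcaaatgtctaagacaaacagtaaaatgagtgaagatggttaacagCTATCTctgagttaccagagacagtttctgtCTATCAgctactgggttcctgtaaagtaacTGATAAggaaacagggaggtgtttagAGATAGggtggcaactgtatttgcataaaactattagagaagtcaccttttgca
Il1rl1 proximal, chr1:40439379-40439628, plus strand: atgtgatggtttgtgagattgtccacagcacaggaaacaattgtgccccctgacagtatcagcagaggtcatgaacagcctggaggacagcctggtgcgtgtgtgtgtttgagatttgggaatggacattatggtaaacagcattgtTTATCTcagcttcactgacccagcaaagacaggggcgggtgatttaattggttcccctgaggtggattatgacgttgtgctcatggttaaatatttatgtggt
Il6, chr5:30012864-30013113, plus strand: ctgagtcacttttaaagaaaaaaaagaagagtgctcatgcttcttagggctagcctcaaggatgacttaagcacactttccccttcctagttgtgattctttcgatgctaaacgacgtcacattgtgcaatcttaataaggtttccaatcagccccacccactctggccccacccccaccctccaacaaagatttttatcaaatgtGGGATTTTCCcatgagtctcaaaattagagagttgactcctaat

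The distal Il1rl1 window held 5 GATA matches, between 217 and 54 bases before the start, and the proximal window held 1. A GATA match was present in 26.5% of the 32851 RefSeq mouse promoters over the same 250 bases. Among the 14 windows of the 9 members it was present in 4, which belong to 3 members (Il1b, Il1rl1 and Il6). The NF-κB consensus was matched in 3.90% of all promoters and in 2 of the 14 member windows, of Il1r1 and Il6, the Il6 match lying 44 bases before the start. A TATAAA motif on the gene's strand was found in 7.59% of all promoters and in 5 of the 14 member windows, from 4 members, Il1a, Il1b, Il33 and Tnf. These matches are letters in a window and say nothing on their own about binding.

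The Il1rn and Il18 probes cover the end of the coding sequence. Each is shown up to its stop codon, in capitals, because it tells what was measured: the Il1rn probe is listed for 3 RefSeq transcripts, which it cannot tell apart.
Il1rn probe: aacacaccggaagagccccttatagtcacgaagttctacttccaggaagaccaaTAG
Il18 probe: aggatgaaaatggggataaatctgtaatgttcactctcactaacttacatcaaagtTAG

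The probes map to mm9 as follows, per the file annotation. The Il1b probe lies at chr2:129190347-129190406 on the minus strand, and the Il1a probe at chr2:129125994-129126053, also minus. Il1rn is at chr2:24205094-24205153, Il18 at chr9:50389761-50389820 and Il33 at chr19:30035101-30035160, all on the plus strand. The short-form Il1rl1 probe is at chr1:40504769-40504828 and the long-form probe at chr1:40522187-40522246, on the plus strand, as is Il1r1 at chr1:40372667-40372726. The second long-form probe is at chr1:40520014-40520073, also plus. Tnf lies at chr17:35336795-35336854 on the minus strand and Il6 at chr5:30346367-30346426 on the plus strand. An annotation of exons and UTRs in this build was not used here.

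No tested member passed the test in any comparison, and the groups of each of the 7 overlapped. limma called 13 of 24537 genes between Control and Sham at a Benjamini-Hochberg adjusted p of 0.05 (0.0530% of genes tested), and 0 of the 7 members. It called 0 genes between 5-ASA and Control (0%; 1004 genes, 4.09%, had an unadjusted p under 0.05), and 13 genes between 5-ASA and Sham (0.0530%), again with 0 members. The groups did not overlap at all for 3.35% of genes in the Control and Sham pair, 0.130% in the 5-ASA and Control pair and 1.83% in the 5-ASA and Sham pair, and for 0 of the 7 tested members in each. Over the 7 tested members the median log2 difference of Control minus Sham was 0.25, with 5 above 0 and 2 below, against -4.77e-05 over all genes. For 5-ASA minus Control it was -0.36, with 1 above 0 and 6 below, and for 5-ASA minus Sham it was -0.23, with 3 above and 4 below. The comparisons share groups, so these counts are not independent of each other.

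**Figure D1:**
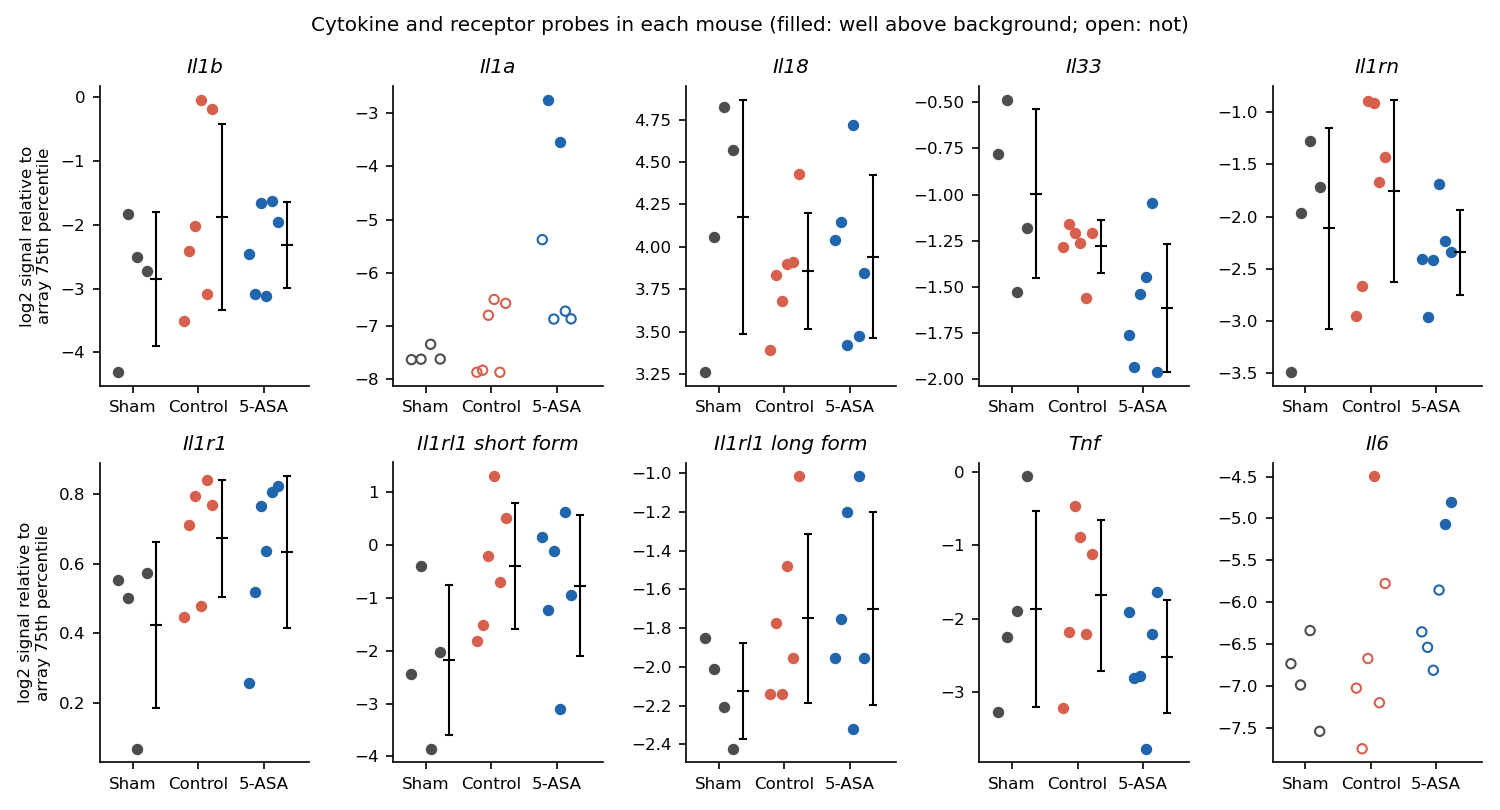
Log2 signal relative to the array's 75th percentile (vertical axis, a separate scale per probe) for each mouse of the 3 groups; filled points were well above background, open points were not, and the bar beside each group is the mean with its SD, left out for Il1a and Il6. In every panel with bars the 3 groups overlap, and the 2 highest Il1b values, -0.03 and -0.18, are both Control mice.

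Il1b varied over 4.28 log2 units between mice, a 19.4-fold range. The Sham mice were at -4.31, -1.83, -2.50 and -2.73. Control ranged from -3.51 over a median of -2.21 to -0.03, and 5-ASA from -3.11 over -2.20 to -1.63. Control 4 (-0.03) and Control 6 (-0.18) stood above all other mice, while Control 1 (-3.51) was below every mouse but Sham 1, and the medians of Control and 5-ASA nearly coincided. The Sham mean was -2.84 ± 1.05 (SD, n = 4), the Control mean -1.87 ± 1.46 (n = 6) and the 5-ASA mean -2.31 ± 0.67 (n = 6), in the order Sham, 5-ASA, Control, and no neighbours in that order differed beyond their spread. Control minus Sham was 0.97 (SE 0.67, 95% interval -0.47 to 2.41, limma adjusted p = 0.671). 5-ASA minus Control was -0.44 (SE 0.60, adjusted p = 0.999) and 5-ASA minus Sham 0.53 (SE 0.67, adjusted p = 0.864). With 1 mouse left out these ranged from 0.48 to 1.31, -0.77 to -0.072 and 0.041 to 0.87. Adjusted for the row of arrays they were 0.59, -1.21 and -0.62, the last resting on the Control mice, since Sham and 5-ASA share no row.

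Tnf varied over 3.72 log2 units, a 13.1-fold range. Sham mice were at -3.27, -2.25, -1.90 and -0.06, so that Sham 4 was the highest of all 16 mice. Control ranged from -3.22 over -1.65 to -0.47, and 5-ASA from -3.77 over -2.50 to -1.64. Means were -1.87 ± 1.34 (SD, n = 4), -1.68 ± 1.03 (n = 6) and -2.52 ± 0.77 (n = 6) for Sham, Control and 5-ASA, so that the order was 5-ASA, Sham, Control with neighbours that did not differ beyond their spread. The difference was 0.19 (SE 0.62, adjusted p = 0.949) for Control minus Sham, and -0.84 (SE 0.55, interval -2.02 to 0.34, adjusted p = 0.999) for 5-ASA minus Control. It was -0.65 (SE 0.62, adjusted p = 0.784) for 5-ASA minus Sham, with -1.12 to -0.050 when 1 mouse was left out. Adjusted for the row, 5-ASA minus Control was -1.73, 5-ASA minus Sham was -1.98, and Control minus Sham changed sign to -0.26 (limma adjusted p over all settings 0.568 to 1.000, 0.482 to 1.000 and 0.777 to 1.000). The -1.73 is set against Control 3 and Control 6 alone.

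The Il1b and Tnf probes are each printed 10 times on the array, which gives the noise between spots of 1 array. The SD between the spots of an array was 0.06 to 0.17 for Il1b and 0.03 to 0.13 for Tnf, with a median of 0.08 for both. The SD between the 16 mice was 1.11 and 1.03. Each mouse had 1 array, so the spread between mice also holds the error of labelling and hybridisation, which was not measured. Of these spots only 1, a Tnf spot, lies in the outer 12 spot rows at either end of the array. Before averaging, 6 Il1b and 10 Tnf spots over all arrays had been left out as outlying. Il1b intensity ran from 52.5 to 1107 and Tnf from 74.0 to 1029 units, and every array was well above background for both.

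**Figure D2:**
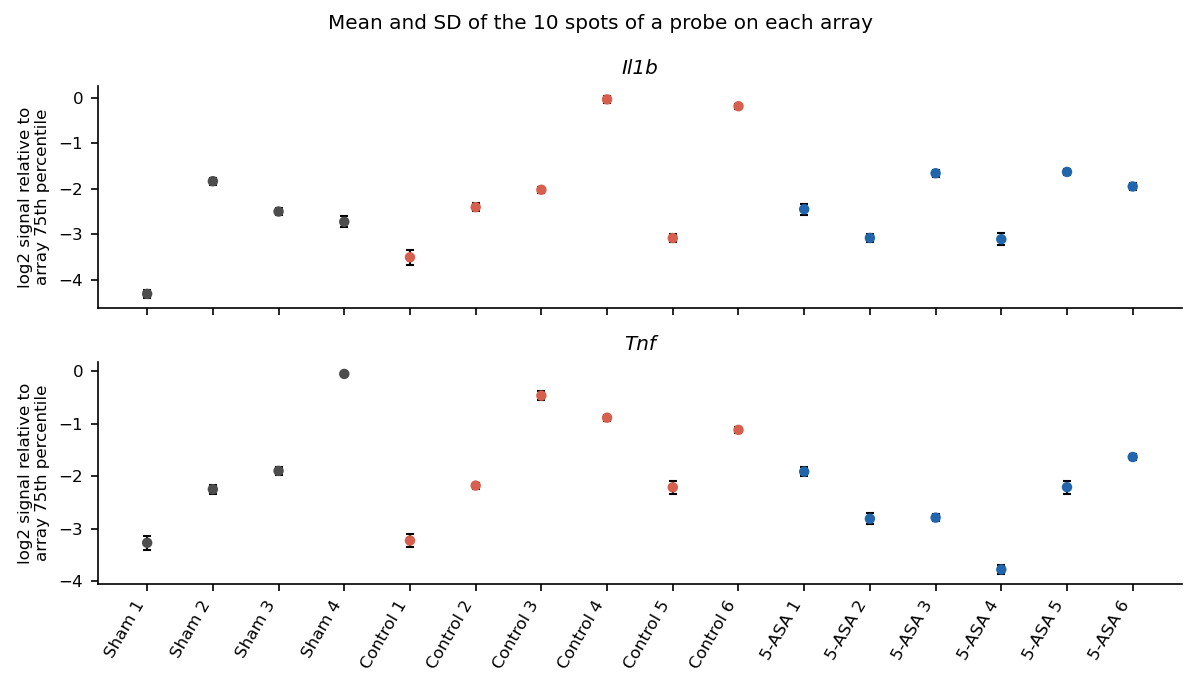
Il1b (top) and Tnf (bottom) in each mouse as the mean of the 10 spots of the array, with the SD of the spots as the bar; the vertical axis is log2 above or below the array's 75th percentile and colours mark Sham, Control and 5-ASA. The bars, 0.03 to 0.17, are within-array noise only and are smaller than the SD over mice of 1.11 and 1.03.

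Set among all genes tested, the SD over all 16 mice, groups included, of Il1rl1 (short form, 1.42), Il1b (1.11), Tnf (1.03) and Il1rn (0.75) was larger than that of 98.6%, 97.2%, 96.4% and 91.6% of genes, where the median gene had 0.26. Il18 (0.48) exceeded 78.8%, Il33 (0.39) 70.9% and Il1r1 (0.22) 39.7% of genes. The level of a gene was not adjusted for.

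Il1rn, the receptor antagonist, was lowest in Sham 1 (-3.49) and at -1.97, -1.27 and -1.71 in the other Sham mice. Control ranged from -2.95 over -1.55 to -0.89, and 5-ASA from -2.96 over -2.38 to -1.69. All 6 5-ASA mice were below the Control median and 5 of 6 below the Sham median, yet they overlapped the lower Control mice. Means were -2.11 ± 0.96 (SD, n = 4), -1.75 ± 0.87 (n = 6) and -2.34 ± 0.41 (n = 6) in Sham, Control and 5-ASA. Control minus Sham was 0.36 (SE 0.46, adjusted p = 0.832), 5-ASA minus Control -0.59 (SE 0.41, adjusted p = 0.999) and 5-ASA minus Sham -0.23 (SE 0.46, adjusted p = 0.935). Leaving out Sham 1 turned the first of these to -0.10. Adjusted for the row they were 0.062, -1.18 and -1.11. The -1.18 is by construction also the difference within the second row alone, where Control 3 and Control 6 were the only Control mice.

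Because IL-1β and its antagonist compete for the same receptor, Il1b minus Il1rn was taken within each array. The Sham average was -0.73 ± 0.60 (SD, n = 4), the Control average -0.12 ± 1.09 (n = 6) and the 5-ASA average 0.03 ± 0.79 (n = 6). The highest balance toward Il1b was in Control 6 (1.25) and Control 4 (0.88), and the lowest in 5-ASA 4 (-1.42) and Control 5 (-1.41). The exact two-sided permutation test over mice gave p = 0.319 (Control and Sham), 0.784 (5-ASA and Control) and 0.148 (5-ASA and Sham), and the smallest p it allows is 0.00476, 0.00216 and 0.00476.

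Il18 was at 3.26, 4.06, 4.82 and 4.57 in the Sham mice, from 3.39 over 3.86 to 4.43 in Control and from 3.42 over 3.94 to 4.72 in 5-ASA. Sham held both the lowest and the highest mouse. Means of 4.18 ± 0.69 (SD, n = 4), 3.86 ± 0.34 (n = 6) and 3.94 ± 0.48 (n = 6) differed by -0.32 (SE 0.30, adjusted p = 0.755) for Control minus Sham and 0.08 (SE 0.27, adjusted p = 0.999) for 5-ASA minus Control. 5-ASA minus Sham was -0.24 (SE 0.30, adjusted p = 0.863).

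Il33 had its 2 highest values in Sham. The Sham mice were at -0.78, -0.49, -1.53 and -1.18, Control ranged from -1.56 over -1.23 to -1.16, and 5-ASA from -1.96 over -1.65 to -1.04. All Control mice but Control 5 lay between -1.29 and -1.16, while the Sham mice spread over 1.04. Means were, from high to low, Sham (-0.99 ± 0.46, SD, n = 4), Control (-1.28 ± 0.14, n = 6) and 5-ASA (-1.61 ± 0.35, n = 6), with neighbours not different beyond the test's threshold: Control minus Sham was -0.29 (SE 0.20, adjusted p = 0.672) and 5-ASA minus Control -0.33 (SE 0.18, adjusted p = 0.999). For 5-ASA minus Sham the difference was -0.62 (SE 0.20, 95% interval -1.04 to -0.20, unadjusted p = 0.00704, adjusted p = 0.334), and 6 of 6 5-ASA mice were below the Sham median. An unadjusted p under 0.05 was reached by 11.0% of all genes in that comparison, and by 1 of the 7 members. The difference was -1.11 on slide 1 and -0.13 on slide 2, and the lowest adjusted p under any setting was 0.0702, without the filter on dim probes. In that setting the difference itself was unchanged at -0.62. There 7946 of 34947 genes had an unadjusted limma p under 0.05, against 2700 of 24537 with the filter. Adjusted for the row, the Il33 difference was -0.73, which rests on the Control mice, since Sham and 5-ASA share no row of arrays. The part of the row in the difference was not tested.

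Il1r1, the signalling receptor, was the steadiest member. Sham mice were at 0.55, 0.50, 0.070 and 0.57, Control from 0.45 over 0.74 to 0.84 and 5-ASA from 0.26 over 0.70 to 0.82. Sham 3 was lowest and all other mice lay between 0.26 and 0.84. Means were 0.42 ± 0.24 (SD, n = 4), 0.67 ± 0.17 (n = 6) and 0.63 ± 0.22 (n = 6), and the difference was 0.25 (SE 0.13, adjusted p = 0.571) for Control minus Sham, -0.04 (SE 0.12, adjusted p = 0.999) for 5-ASA minus Control and 0.21 (SE 0.13, adjusted p = 0.608) for 5-ASA minus Sham.

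The short, secreted form of Il1rl1 covered 5.16 log2 units, a 35.8-fold range and the widest of the tested members. Sham mice were at -2.43, -0.39, -3.86 and -2.02. Control ranged from -1.81 over -0.45 to 1.30, and 5-ASA from -3.10 over -0.53 to 0.63. All 6 Control mice and 5 of 6 5-ASA mice were above the Sham median of -2.23, with 5-ASA 4 the exception, and Sham 2 lay among the DSS-treated mice. Means were -2.17 ± 1.43 (SD, n = 4), -0.40 ± 1.19 (n = 6) and -0.77 ± 1.34 (n = 6). Control minus Sham was 1.77, a 3.42-fold higher mean (SE 0.79, interval 0.10 to 3.45, unadjusted p = 0.0396, adjusted p = 0.559). It was the 1 of 7 members with an unadjusted p under 0.05 in this comparison, where 8.90% of all genes reached that. On slide 1 alone the difference was 0.24 and on slide 2 alone 3.31, and leaving out 1 mouse at a time gave 1.21 to 2.37. 5-ASA minus Control was -0.36 (SE 0.70, adjusted p = 0.999) and 5-ASA minus Sham 1.41 (SE 0.79, adjusted p = 0.539). Adjusted for the row these 3 differences were 1.50, -0.92 and 0.58, where the -0.92 is set against Control 3 and Control 6 alone.

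The long, membrane-bound form of Il1rl1 varied less, over a 2.65-fold range. It was at -1.85, -2.01, -2.21 and -2.42 in Sham, from -2.14 over -1.86 to -1.02 in Control and from -2.32 over -1.85 to -1.02 in 5-ASA. Control 6, 5-ASA 5 and 5-ASA 3 were the 3 highest mice, at -1.02, -1.02 and -1.20. In the fit over every kept probe, which called 0.0513% of 35073 probes (Control and Sham), 0% (5-ASA and Control) and 0.0599% (5-ASA and Sham), Control minus Sham was 0.37 (SE 0.26, adjusted p = 0.684). 5-ASA minus Control was 0.05 (SE 0.23, adjusted p = 0.999) and 5-ASA minus Sham 0.42 (SE 0.26, adjusted p = 0.596). A second probe for the long form, starting at base 2825 of its transcript against 4998, was not well above background on any of the 16 arrays. The probes of this transcript thus disagree on whether it was detected. The measured values of the second probe did not overlap between Sham (-7.82 to -7.38) and 5-ASA (-6.97 to -6.35), but below background they have no order.

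The short minus the long form was taken within each array, with the long form read from its detected probe. The Sham average was -0.05 ± 1.40 (SD, n = 4), the Control average 1.35 ± 0.97 (n = 6) and the 5-ASA average 0.93 ± 1.00 (n = 6). This balance was highest in Control 4 (2.78) and 5-ASA 1 (2.11) and lowest in Sham 3 (-1.65) and 5-ASA 4 (-0.78). The difference between Control and Sham was 1.40 (exact two-sided permutation p = 0.105), that between 5-ASA and Sham 0.98 (exact p = 0.233) and that between 5-ASA and Control -0.42 (exact p = 0.489). Both balances were chosen after the values were seen, and adjusted over these 6 tests the permutation p-values were 0.443 to 0.784.

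**Figure D3:**
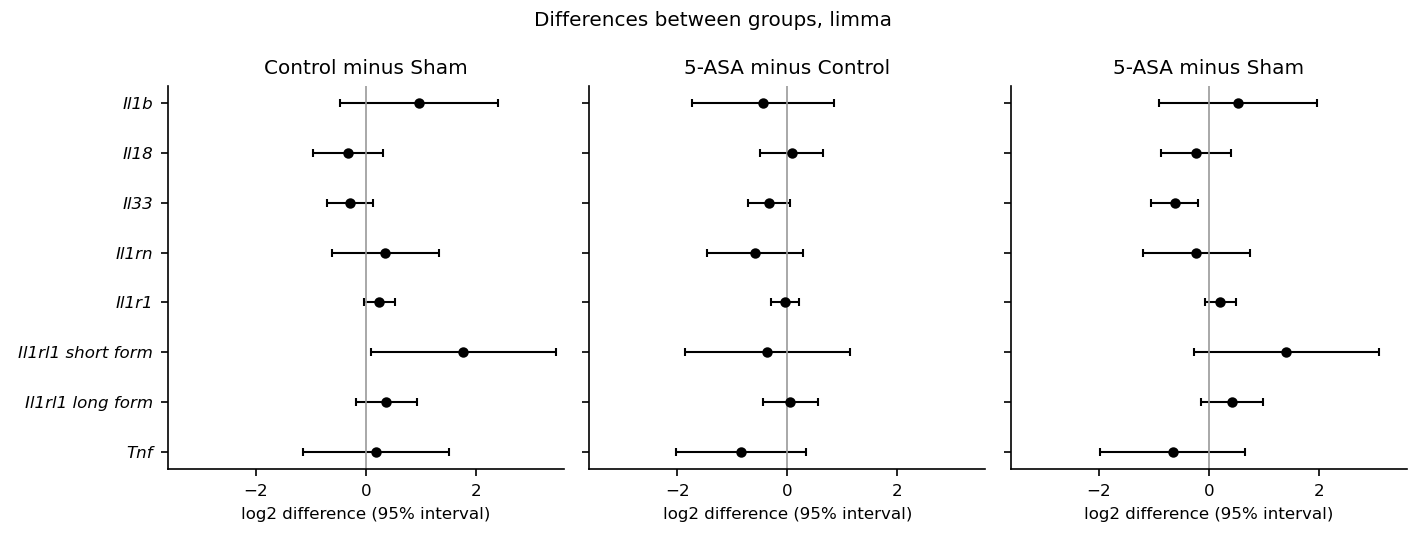
Log2 differences between group means (horizontal axis) with 95% intervals from limma for 7 genes and 8 probes in the 3 comparisons. The interval lies wholly on one side of 0 for the Il1rl1 short form in Control minus Sham (0.10 to 3.45) and for Il33 in 5-ASA minus Sham (-1.04 to -0.20), before any adjustment for the number of genes tested.

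Il1a and Il6 were near the detection limit. Il1a was well above background in 5-ASA 2 (-2.74) and 5-ASA 4 (-3.54) and in no Sham or Control mouse, with the other mice between -7.88 and -5.38. The measured 5-ASA mean was -5.35, with the below-background values of 4 of the 6 mice taken as measured. Counted at the lowest signal well above background on each array, Control averaged -5.46 and Sham -5.57. The 5-ASA mean was 1.08-fold and 1.16-fold above these levels. It rests on 2 mice well above background, so these folds are not firm bounds. Measured means were -7.24 in Control and -7.56 in Sham, and without the filter on dim probes limma gave adjusted p = 0.103 and 0.0757. In that setting limma called 2953 of 34947 genes between 5-ASA and Control, 2905 of them higher in 5-ASA, whose arrays all sat in the second row, and the part of the row in this was not tested. The measured Il1a values of Sham (-7.64 to -7.35) and 5-ASA (-6.87 to -2.74) did not overlap, with 4 of the 6 5-ASA values not well above background. The Il1a probe has 1 spot, in spot row 6 of 384, within the outer 12 rows. Il6 was well above background in Control 4 (-4.49), 5-ASA 6 (-4.80) and 5-ASA 5 (-5.07), in the last pair on 1 of 2 spots, and not in any Sham mouse. Its group means were -6.90, -6.49 and -5.90 in Sham, Control and 5-ASA. All were below -5.57, the mean for Sham arrays counted at their lowest signal well above background.

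The members did not all vary together. Of 28 pairs of the 8 tested probes, the Il1b and Il1rl1 short-form values of the 16 mice had the lowest p for the correlation (Pearson's r = 0.72, permutation p = 0.00177, 0.0496 adjusted over the 28 pairs; Spearman's rho = 0.80, permutation p = 0.000300, adjusted 0.00840). Without Control 4 and Control 6, the mice farthest from the Il1b median, r was 0.58. It was 0.86 and 0.76 within slides 1 and 2, 0.69 and 0.71 within the first and second row of arrays, and 0.91 and 0.76 within Control and 5-ASA. The short and long forms of Il1rl1 came next (r = 0.68, permutation p = 0.00383, adjusted 0.0536; rho = 0.71, permutation p = 0.00295, adjusted 0.0413), with r = 0.63 without Sham 3 and 5-ASA 4, 0.67 and 0.71 within the rows, and 0.16 and 0.83 within slides 1 and 2. Il1rn and Tnf had r = 0.65 (permutation p = 0.00683, adjusted 0.0637; rho = 0.63, permutation p = 0.0106, adjusted 0.0990), with r = 0.51 without Sham 1 and Control 3. Within Control the Il1rn and Tnf values had r = 0.92 and within 5-ASA r = -0.40, a difference that was not tested. Within slides their r was 0.92 and 0.25, and within rows 0.74 and 0.54. Il33 and its receptor showed little relation (r = 0.06 with the short form, permutation p = 0.813, and 0.07 with the long form, permutation p = 0.805, both adjusted 0.993).

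Markers of leukocytes and of muscle moved with several members, for lists that were chosen with results of these data known, and 88 member and list pairs were computed. Of these, 4 had an adjusted permutation p under 0.05 by Pearson's r, and none by Spearman's rho (lowest 0.0987). Il1b also had r = 0.62 with the macrophage and monocyte list (permutation p = 0.0107, adjusted 0.118). It had 0.60 with the T cell and innate lymphoid list (adjusted 0.132) and 0.53 with the B cell list (adjusted 0.160). Control 4 was the highest mouse for each of these lists. The mean log2 level of 9 neutrophil markers ran from -2.03 to -0.71 in Sham, -2.002 to -0.17 in Control and -1.68 to -0.79 in 5-ASA, with Cxcr2 and Ngp not above background on any array. It was highest in Control 4 and Control 6, the mice with the most Il1b (r = 0.79 with Il1b, permutation p = 0.000170, adjusted 0.00792; rho = 0.69, permutation p = 0.00401, adjusted 0.0987), and r was 0.61 without these mice. Within slides r was 0.66 and 0.89, and within the first and second rows 0.93 and 0.45. Of the 9 neutrophil markers 3 were higher in Control than in Sham, with a median difference of -0.04. Between 5-ASA and Sham 4 of 9 were higher in 5-ASA, with a median of -0.0090. The 5 smooth muscle markers ran from 5.06 to 6.30 in Sham, 4.25 to 6.19 in Control and 5.42 to 5.91 in 5-ASA, and were lowest in Control 6 and Control 4 (r = -0.81 with Il1b, permutation p = 0.000500, adjusted 0.0147; rho = -0.54, permutation p = 0.0324, adjusted 0.204). Without these mice r was -0.53, within slides -0.81 and -0.76, and within rows -0.91 and -0.68. Il1rn had r = -0.70 with the muscle list (permutation p = 0.00216, adjusted 0.0475; rho = -0.67, permutation p = 0.00561, adjusted 0.0987), r = -0.64 without the same mice, -0.69 and -0.71 within slides and -0.90 and -0.39 within rows. The part of tissue composition in the members' differences was not tested.

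The 6 B cell markers, whose mean ranged from -4.02 to 1.99 in Sham, -3.50 to 2.02 in Control and -3.42 to -1.72 in 5-ASA, showed r = 0.70 with Il1rn (permutation p = 0.00297, adjusted 0.0523; rho = 0.74, permutation p = 0.00163, adjusted 0.0987) and r = 0.66 with Tnf (permutation p = 0.00488, adjusted 0.0716; rho = 0.70, permutation p = 0.00334, adjusted 0.0987). Without Control 4 and Sham 2 these were 0.72 and 0.77, and within slides 0.67 and 0.73 for Il1rn and 0.52 and 0.71 for Tnf. Within the rows they were 0.82 and 0.79 for Il1rn and 0.77 and 0.75 for Tnf. Sham 1, the lowest mouse for Il1b and Il1rn, was also the lowest of all mice for the B cell list (-4.02) and the neutrophil list (-2.03). The same held for the macrophage and monocyte list (1.04) and the T cell and innate lymphoid list (-2.21). Sham 1 was the highest mouse for the smooth muscle (6.30), fibroblast (3.52) and endothelium (0.73) lists. All 6 B cell markers were below Sham in 5-ASA by a median of -2.71, and 0 of them was called, beside 0.0530% of all genes. Sham and 5-ASA share no row of arrays.

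The mast cell list moved with the detected probe for the long form of Il1rl1, the receptor that mast cells carry. The list's 7 tested markers averaged -3.51 to -3.03 in Sham, -3.73 to -0.76 in Control and -3.39 to -0.25 in 5-ASA, and Ms4a2 and Tpsab1 were not above background on any array. The 3 mice highest for the list, 5-ASA 5 (-0.25), Control 6 (-0.76) and 5-ASA 3 (-1.21), were the 3 highest for the long form. The correlation was 0.85 (permutation p = 0.000180, adjusted 0.00792; rho = 0.68, permutation p = 0.00511, adjusted 0.0987) and r was 0.66 without Control 6 and 5-ASA 5. It was 0.90 and 0.85 within slides, and 0.15 in the first row of arrays against 0.96 in the second, which held all 3 of these mice. The list's markers were higher in 5-ASA than in Sham for 7 of 7, by a median of 1.64, and 0 of them was called, beside 0.0530% of all genes. Sham and 5-ASA share no row of arrays.

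**Figure D4:**
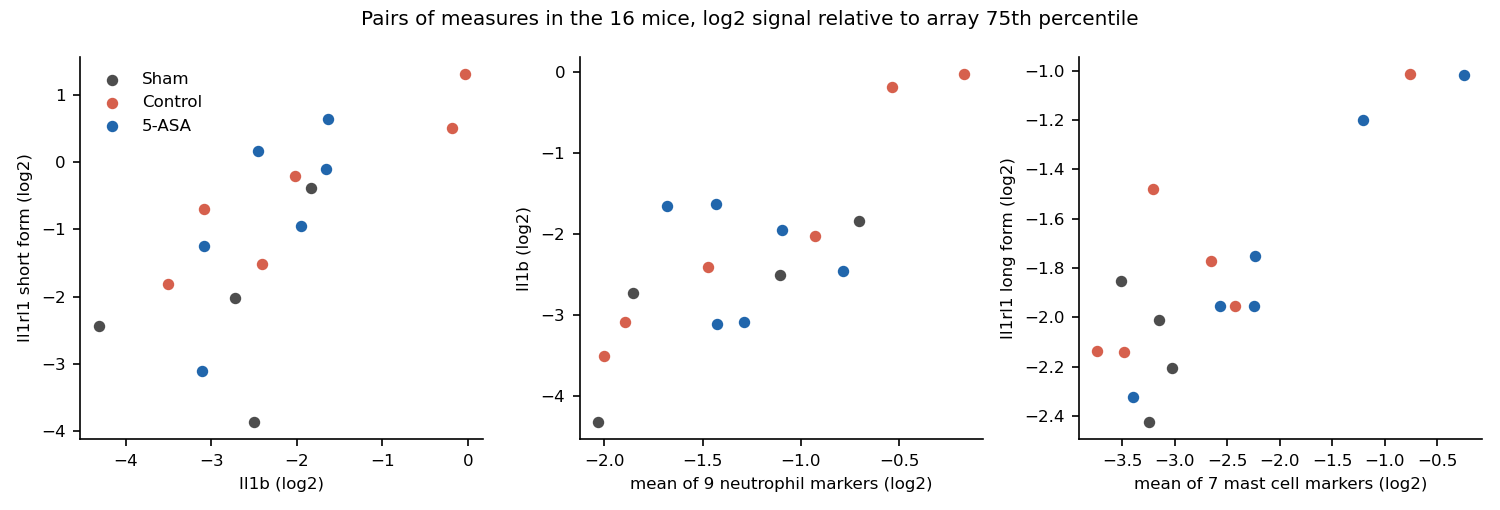
Each point is a mouse, coloured by group, with log2 signal relative to the array's 75th percentile on both axes: the Il1rl1 short form against Il1b, Il1b against the mean of 9 neutrophil markers, and the Il1rl1 long form against the mean of 7 mast cell markers. The pairs have r = 0.72, 0.79 and 0.85 over 16 mice, and Control 4 and Control 6 lie at the upper end of the first and second panels.

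The diarrhoea score at day 28 was 0 to 0.5 in Sham, 0.5 to 1.5 in Control and 0 to 0.5 in 5-ASA. In a model of the 12 DSS-treated mice with group as a term, limma called 0 of 24537 genes for the slope on this score (0%), and 3.39% had an unadjusted p under 0.05, among them 1 of the 7 members. That member was Il1rn, at 1.22 log2 units per unit of score (SE 0.48, 95% interval 0.15 to 2.28, unadjusted p = 0.0290, adjusted p = 0.999). The slope was 1.23 for Tnf (SE 0.72, adjusted p = 0.999) and 1.15 for Il1b (SE 0.95, adjusted p = 0.999), and smaller for Il18 (0.27), Il1r1 (0.15), the Il1rl1 short form (0.30) and Il33 (-0.08). Of the 7 slopes 6 were above 0, with a median of 0.30 against -0.02 over all genes.

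The 3 mice that scored above 0.5 were Control 3 (1.5), Control 4 (1) and Control 6 (1). Among the 12 DSS-treated mice they held the 3 highest values of Il1rn (-0.89, -0.91 and -1.43) and of Tnf (-0.47, -0.89 and -1.12). For Il1b, Control 4 and Control 6 were highest, but Control 3, with the highest score, was at -2.02, near the Control median. No 5-ASA mouse scored above 0.5. For Tnf, 5-ASA 1 and 5-ASA 5, with a score of 0, were at -1.91 and -2.21. The 5-ASA mice with 0.5 ran from -3.77 to -1.64. For Il1b the former were at -2.45 and -1.63 and the latter from -3.11 to -1.66. For the Il1rl1 short form these were 0.16 and 0.63, and -3.10 to -0.11. The slopes above 0 for these probes thus came from the Control mice. Control 3 and 6 lay in the second row of arrays. Adjusted for the row, the slope was 1.06 for Il1rn, 0.50 for Tnf and 0.59 for Il1b. Leaving out 1 mouse at a time gave 0.91 to 1.42 for Il1rn, 0.73 to 1.62 for Tnf and 0.67 to 2.31 for Il1b.

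**Figure D5:**
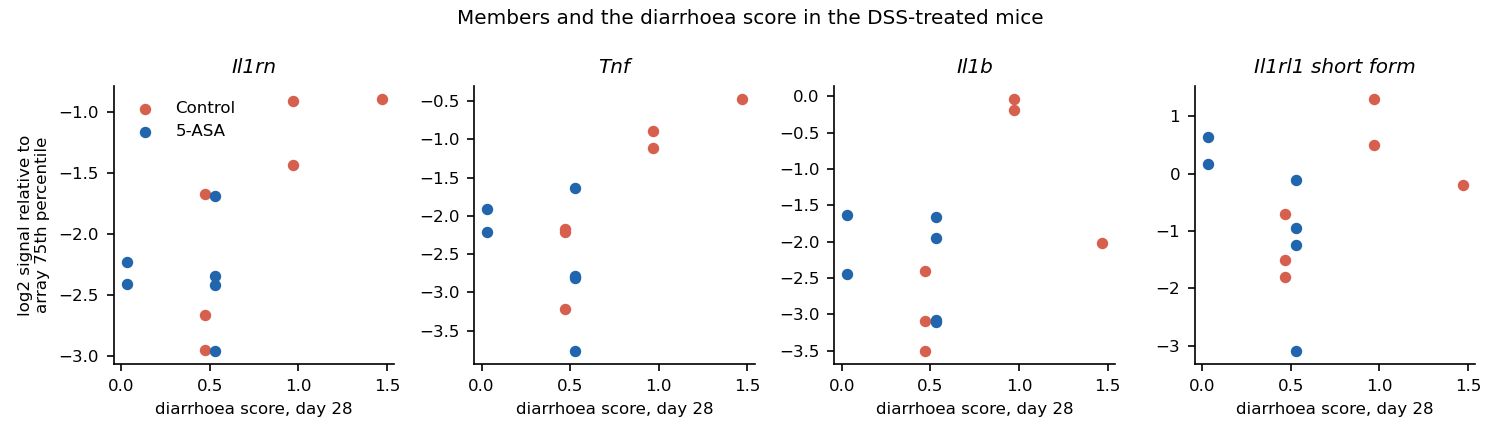
Log2 signal relative to the array's 75th percentile (vertical axis, a separate scale per gene) against the diarrhoea score at day 28 for the 6 Control and 6 5-ASA mice, with points of the groups offset sideways for display. The 3 Control mice with a score of 1 or 1.5 are the highest for Il1rn and Tnf, while the mouse with 1.5 is at -2.02 for Il1b.

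Around the members, 82 genes of 7 pathway lists were on the array and 69 were tested, and 0 of the 69 was called in any comparison, in either direction. Those with an unadjusted p under 0.05 numbered 5 between Control and Sham (7.25%, beside 8.90% of all genes) and 1 between 5-ASA and Control (1.45%, beside 4.09%). They numbered 6 between 5-ASA and Sham (8.70%, beside 11.0%) and 0 for the score.

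The 5 further IL-1 family ligands on the array, the IL-36 genes and their relatives, were all too dim to test. Of 9 further receptors, coreceptors and decoys 5 were tested, and the median difference was 0.10 for Control minus Sham, -0.24 for 5-ASA minus Control and -0.26 for 5-ASA minus Sham. Il1r2, the decoy receptor that binds IL-1 without signalling, had a Control mean of -3.65 ± 1.61 (SD, n = 6) and a 5-ASA mean of -4.79 ± 0.94 (n = 6), a difference of -1.13 (SE 0.68, limma adjusted p = 0.999). The lowest Il1r2 value was -5.96 in Control and -5.93 in 5-ASA. The lowest signal well above background was -6.07 to -4.65 on Control arrays and -5.55 to -4.32 on 5-ASA arrays. Il1r2 was thus partly near the detection limit in both groups. The slope of Il1r2 on the diarrhoea score was 1.90 (SE 1.02, adjusted p = 0.999). Il18r1, a chain of the IL-18 receptor, differed by -0.40 (SE 0.32, adjusted p = 0.710) in Control and -0.64 (SE 0.32, adjusted p = 0.478) in 5-ASA relative to Sham. For Il1rap, the shared coreceptor, Control minus Sham was 0.10 (adjusted p = 0.795) and 5-ASA minus Control -0.13 (adjusted p = 0.999), and Il18bp, the soluble inhibitor of IL-18, had a slope of 0.87 on the score (adjusted p = 0.999).

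All 14 inflammasome and processing genes were tested, with medians of -0.06, -0.0038 and 0.03 in the 3 comparisons. Txnip, which binds thioredoxin and the NLRP3 sensor, had a Sham mean of 5.27 ± 0.32 (SD, n = 4) and a Control mean of 4.70 ± 0.26 (n = 6), a difference of -0.57 (SE 0.19, adjusted p = 0.559), and 5-ASA minus Sham was -0.38 (adjusted p = 0.472). Control minus Sham was 0.27 for the apoptotic caspase Casp8 (adjusted p = 0.561). Between 5-ASA and Control the genes with the smallest p were the sensors Aim2 (0.21) and Nlrp6 (0.22, both adjusted p = 0.999), and between 5-ASA and Sham the sensor Nlrp1a, at 0.54 (adjusted p = 0.409). On the score, Nlrp1b had a slope of -0.33 and the pore-former Gsdmd 0.34 (both adjusted p = 0.999).

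The 14 genes of IL-1 receptor signalling had medians of 0.07, -0.05 and 0.0045. The kinase genes Map3k7 (TAK1), at 0.26, and Irak1, at 0.17, had the smallest p for Control minus Sham (both adjusted p = 0.559). Irak1 (0.16, adjusted p = 0.439) and Irak4 (0.23, adjusted p = 0.437) had it for 5-ASA minus Sham. For 5-ASA minus Control these were the inhibitor Tollip (-0.18) and the TAK1 partner Tab3 (-0.13), and for the score Ikbkg (-0.32) and Tollip (0.17), all at adjusted p = 0.999.

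In the TNF list of 14 genes the medians were -0.07, -0.07 and -0.08. Tnfaip3, the NF-κB feedback inhibitor A20, had a Sham mean of 2.80 ± 0.35 (SD, n = 4), a Control mean of 2.40 ± 0.20 (n = 6) and a 5-ASA mean of 2.18 ± 0.12 (n = 6). Sham ranged from 2.38 to 3.22 and 5-ASA from 2.03 to 2.35, so that these 2 groups did not overlap, as for 1.83% of all genes. Tnfaip3 is named for the smallest p of its list in this comparison, and Sham and 5-ASA share no row of arrays. The difference was -0.62 for 5-ASA minus Sham (SE 0.14, unadjusted p = 0.000536, adjusted p = 0.311), -0.39 for Control minus Sham (adjusted p = 0.559) and -0.23 for 5-ASA minus Control (adjusted p = 0.999). Lta, the lymphotoxin gene next to Tnf, had a Sham mean of -2.95 ± 1.89 (SD, n = 4) and a 5-ASA mean of -5.08 ± 0.63 (n = 6), a difference of -2.13 (SE 0.81, adjusted p = 0.362), and 5-ASA minus Control was -0.99 (adjusted p = 0.999). In 5-ASA, Lta ran from -6.06 to -4.16. The lowest signal well above background on a 5-ASA array was -5.55 to -4.32, so this group lay near the detection limit for Lta. Traf1 was at -0.60 for Control minus Sham (adjusted p = 0.571). On the score Tnfaip3 had a slope of 0.29 and the apoptosis inhibitor Birc3 of 0.55 (both adjusted p = 0.999).

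The 14 genes of the IL-6 family and its signalling had medians of -0.07, -0.09 and -0.06. Socs3, the feedback inhibitor that STAT3 induces, had a Sham mean of 1.22 ± 0.13 (SD, n = 4; 1.08 to 1.37), a Control mean of 2.36 ± 1.00 (n = 6; 1.16 to 3.92) and a 5-ASA mean of 1.98 ± 0.69 (n = 6). Control minus Sham was 1.14 (SE 0.46, adjusted p = 0.559), beside Il6 itself near the detection limit. Osmr, a receptor of the family, was at 0.24 (adjusted p = 0.566). The ligand Clcf1 was at -0.86 (adjusted p = 0.399) and the kinase Jak1 at -0.17 (adjusted p = 0.528) for 5-ASA minus Sham. In 5-ASA, Clcf1 ran from -4.58 to -3.88. The lowest signal well above background on a 5-ASA array was -5.55 to -4.32, so Clcf1 was partly near the detection limit. Clcf1 (-0.48) and the kinase Tyk2 (0.14) had the smallest p for 5-ASA minus Control, and Il11ra1 (-0.23) and Il6ra (0.24) for the score (all adjusted p = 0.999).

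Of 12 type 2 cytokines and partners of IL-33, 8 were tested, with medians of -0.09, -0.16 and -0.11. Il25, a tuft cell cytokine, had a Control mean of -5.45 ± 1.19 (SD, n = 6) and a 5-ASA mean of -4.25 ± 0.47 (n = 6), a difference of 1.21 (SE 0.44, adjusted p = 0.999), and Control minus Sham was -0.58 (adjusted p = 0.727). Control values of Il25 ran from -7.66 to -4.21. The lowest signal well above background on a Control array was -6.07 to -4.65. Part of the Il25 values thus lay at or below the detection limit, and the differences are not changes between measured levels. Areg, the growth factor that IL-33-responsive cells secrete, differed by -0.57 (SE 0.33, adjusted p = 0.999) for 5-ASA minus Control and -0.60 (adjusted p = 0.585) for 5-ASA minus Sham, with a slope of 0.94 on the score (adjusted p = 0.999). Tslp was at -0.46 for 5-ASA minus Sham (adjusted p = 0.618) and the chemokine Ccl24 at -0.55 for Control minus Sham (adjusted p = 0.715). The lowest Tslp value in 5-ASA was -4.88 and the lowest Ccl24 value in Control -4.75. With a lowest signal well above background of -5.55 to -4.32 on 5-ASA arrays, both were partly near the detection limit. Ccl11, the eosinophil chemokine eotaxin, had a slope of 0.37 on the score (adjusted p = 0.999).

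The genes most like each tested member across the 16 mice were ranked by Pearson's r over all genes tested, as a description without a test. Il1b was most like Gzmc, a granzyme of cytotoxic cells (r = 0.92), Lilrb4a, an inhibitory receptor of myeloid cells (0.89), and LOC101056540 (0.89), and without Control 4 and Control 6 these were 0.80, 0.83 and 0.77. Among the members the short form of Il1rl1 was the closest to Il1b, at rank 265. Tnf was most like Nfkbia, the NF-κB inhibitor IκBα (0.85), and the cholesterol synthesis genes Mvd (0.85) and Hmgcs1 (0.85), with 0.73, 0.85 and 0.82 without Sham 4 and Control 3, and Il1rn was at rank 331.

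Il1rn was most like Arhgef10l (0.92), Tma16 (0.92) and a probe with no gene name (0.92). Il18 was most like Cyp2d11 (0.93) and Cyp2d12 (0.92), cytochrome P450 genes whose close relatives can share signal on an array, and Acpp (0.92). The short form of Il1rl1 was most like the ubiquitin ligase Rnf183 (0.85), the amino acid transporter Slc7a5 (0.84) and the connexin Gjb2 (0.84), and Il1b was at rank 179. Il33 had its highest r with a probe named by position only (0.88), Rest (0.80), a transcriptional repressor, and A3galt2 (0.78), and Il1r1 with a probe named by position only (0.82), Frem1 (0.81) and Spon1 (0.81), a pair of matrix proteins. For Il1r1 the value of the first fell to 0.52 without Sham 3 and 5-ASA 1.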

How the data were processed

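Expression was measured in 16 mice with 1-colour Agilent arrays, 1 per mouse, from 0.2 ug of total RNA, per the labels' protocols. Per the file headers, Agilent Feature Extraction 10.10.1.1 subtracted background from each spot intensity and removed spatial trends, with no scaling across arrays, before the authors deposited it, with mean spot and median local background intensities and flags of 0 or 1 (other values), per the file headers. Probe positions are those of mm9, per the file headers. Each array had 62976 spots, 59305 of them not controls, of which 53.0% to 65.2% were well above background and 0 were saturated.

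The value table that the authors deposited states no scale, centring or direction; these were inferred, since its values matched log2 intensity, shifted by the 75th percentile and with the Sham median of every probe taken off (r 0.997 or higher per array). Column by column its median was -0.00090, -0.046, 0.070 and -0.0065 for the Sham mice, then -0.032, -0.062, 0.206, -0.187, -0.043 and 0.146 in the Control columns and 0.223, 0.177, 0.135, 0.136, 0.112 and 0.111 in the 5-ASA columns, by replicate number. It served as an alternative.

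Here, each array's 75th percentile was subtracted from the log2 intensities as deposited, outlying spots were left out, and the spots of a probe were averaged. A probe was well above background on an array where at least 0.5 of its spots were, and a probe needed this on 4 or more of 16 arrays to be kept (35073 were). Of 55681 probes, 27656 were named through RefSeq accessions (GRCm38.p6, for names and promoters only), 28025 kept the file's name and 1711 symbols were updated. Each gene was read from its brightest kept probe. Groups were compared with limma 3.58.1 (R 4.3.3) in 1 model of the 3 groups, tested on simulated data, with Benjamini-Hochberg adjustment over 24537 genes. Correlations used 100000 permutations. The number of mice limits the precision.

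All 9 members and every probe of each are named. From each list the genes called, up to 3, or else the 2 with the smallest p are named, and the 3 genes with the highest r for each member. The members, lists and tests were chosen with earlier results of these data known. Replicate numbers did not pair the mice: same-numbered mice had correlations of their deviations from -0.21 to 0.61. Alternatives covered background correction, scaling, the filter, probe choice, slide, row, spot position, replicate number and each mouse left out.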

Additional observations from a re-analysis of the deposited data

Results flagged for a closer look

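In 3 of 30 groups of mice, 1 value stood far from the others by Dixon's criterion, which chance meets in about 1 in 20 groups. Il33 was lowest in Control 5, at -1.56, where the other 5 Control mice lay between -1.29 and -1.16. Il1r1 was lowest in Sham 3, at 0.070, where the other 3 Sham mice lay between 0.50 and 0.57. Il1a was highest in Sham 3, at -7.35 against -7.64 to -7.63 in the other Sham mice, all of them below background, so this value is not a level.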

How the results depend on the processing

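The 32 member results were recomputed under 912 alternatives in all: 874 kept their direction, 38 reversed, 20 of them with no mouse left out, and 0 passed the threshold. Some alternatives could not change a group difference: the compared groups alone, a mouse of the third group left out, and no filter on dim probes. A single row of arrays repeated the value with the row as a covariate. These counts are thus not counts of independent checks. The smallest limma adjusted p was 0.0702, for Il33 in 5-ASA against Sham without the filter on dim probes, and 15 results never reversed. The Il33 difference was the same with and without the filter, at -0.62. Without it 7946 of 34947 genes had an unadjusted p under 0.05, against 2700 of 24537 with it. The cause of the changes below was not tested.

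Genes called between Control and Sham, 13 in the report, numbered 0 with probes well above background on all arrays (2017 at an unadjusted p under 0.05) and 0 without the outer 12 spot rows (2090 unadjusted). They were 4 on slide 1, 1 on slide 2, 8 with the row as a covariate, 1 in the first row alone and 6 with the 2 compared groups alone. For 5-ASA against Control, 0 in the report, they were 2953 without the filter on dim probes (2905 higher and 48 lower in 5-ASA), 1 on slide 2 and 7 with the row as a covariate. For 5-ASA against Sham, 13 in the report, they were 0 with probes well above background on all arrays (2297 unadjusted) and 0 without the outer spot rows (2510 unadjusted). They were 21 with every kept probe, 2 on slide 1, 4 on slide 2 and 3 with the row as a covariate. Leaving out 1 mouse at a time gave 9 to 14, 0 to 0 and 10 to 25 calls in these comparisons, the 25 without 5-ASA 4. For the score limma called 0 genes under every setting run (833 unadjusted in the report).

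The replicate number as a block (replicate block) gave 8 calls between Control and Sham, 0 between 5-ASA and Control (1256 unadjusted) and 10 between 5-ASA and Sham. It turned no member and put none past the threshold, and not every mouse correlated best with its own number.

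On slide 1 alone the log2 difference reversed for the Il1rl1 long form (-0.085, Control minus Sham), Il1b (0.25) and the Il1rl1 short form (0.78, 5-ASA minus Control), and for Il1rn (0.14), Il18 (0.21), Il1r1 (-0.013) and Tnf (0.25, 5-ASA minus Sham). On slide 2 alone it reversed for Il33 (0.013) and Tnf (-0.43, Control minus Sham), and for Il18 (-0.067), Il1r1 (0.058) and the long form (-0.28, 5-ASA minus Control). With the row as a covariate it reversed for Tnf (-0.26, Control minus Sham), Il18 (-0.11) and the long form (-0.12, 5-ASA minus Control), Il1b (-0.62, 5-ASA minus Sham) and the short form's slope on the score (-0.54). The single-row fits repeat row-adjusted values by construction. The first row alone gave -0.26 for Tnf, and the second row alone -0.11 for Il18 and -0.12 for the long form.

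With 1 mouse left out, ranges that crossed 0 were -0.10 to 0.64 for Il1rn and -0.28 to 0.79 for Tnf (Control minus Sham), and -0.69 to 0.050 for Il1rn (5-ASA minus Sham). For 5-ASA minus Control they were -0.071 to 0.20 for Il18, -0.086 to 0.20 for the long form, -0.65 to 0.10 for the short form and -0.084 to 0.036 for Il1r1. For the score they were -0.21 to 0.88 for the short form, -0.25 to 0.33 for the long form and -0.24 to 0.13 for Il33. Dim probes limit Il1a and Il6, and 4 Sham mice limit every difference from Sham.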
